A study of Homo sapiens with 6 samples.

Results

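The 9 genes described here belong to plasminogen activation and to the tissue factor branch of coagulation: PLAU, PLAT, PLAUR and SERPINE2, then F3, TFPI, TFPI2 and F2RL1, and the matricellular gene THBS1. They were taken by symbol from a table of 27451 gene rows, each symbol matched 1 row, and all 9 were among the 12294 genes tested. Poly-A RNA was sequenced from the human breast cancer cell line MDA-MB-231, which lacks estrogen and progesterone receptors, in 3 libraries of cells given the vehicle DMSO and 3 libraries of cells given 2 µM H182 for 2 h. H182 is the code of a compound from a series on STAT3 inhibitors, STAT3 being a transcription factor. No genetic change or other agent is named in the labels for either group, and the whole series rests on 1 line, 1 dose and 1 time.

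Plasminogen activators are serine proteases that cut the plasma protein plasminogen to plasmin, which dissolves fibrin and degrades matrix. Urokinase acts at the cell surface on its receptor, tissue-type activator acts mainly on fibrin, and serpins trap both. Tissue factor is the membrane receptor that starts coagulation by binding factor VII, and the complex also signals through a protease-activated receptor. MDA-MB-231 is widely used to study both systems because it makes urokinase, its receptor and tissue factor.

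In the H182 libraries, tissue factor (F3), the protease-activated receptor gene F2RL1 and urokinase (PLAU) fell by 25.7%, 26.8% and 22.9% of their DMSO level, while SERPINE2, a serpin that inhibits urokinase, tissue-type activator and thrombin, rose 1.53-fold. THBS1 fell by 12.9% and PLAUR rose 1.10-fold, and both calls depended on the processing. PLAT, TFPI and TFPI2 did not pass the test. In TPM, a transcript's share of its library per 1000000, 4 of the 9 genes were lower and 2 higher at an adjusted p under 0.05 in limma, where 18.7% of all tested genes were lower and 5.30% higher. The groups did not overlap in 8 of the 9 genes, and in 41.4% of all tested genes. The 9 genes lay at percentiles 53.1 to 99.0 of the DMSO levels of all tested genes, and these shares were not matched for level. The median change of the 9 genes was -0.15 on the log2 scale, against -0.09 over all tested genes. No change reached 2-fold.

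A TPM value is a share of its library, and in these data most genes shifted slightly downward in share, so each change is also given with median-of-ratios scaling, which set the median of all tested genes to 0.00. With that scaling 3 of the 9 genes were lower (F3, F2RL1 and PLAU) and 3 higher (SERPINE2, PLAUR and TFPI2), where 6.79% of all tested genes were lower and 7.91% higher. Quantile normalization called the same 3 lower and the same 3 higher, where it called 10.3% of all tested genes lower and 6.78% higher. Values in TPM keep no record of read number, so depth was unknown and no counting interval is given. The labels leave unsaid whether libraries of a group are separate cultures, and the p-values cover only the spread among these 6 libraries, part of which may be technical. In such bulk values, fewer expressing cells and less RNA per cell cannot be told apart. Between 12230 and 12353 genes reached 1 TPM per library. The 5 genes used as markers of the line (VIM, CD44, MSN, CAV1 and AXL) summed to 6552 to 6709 TPM in the DMSO libraries and to 5574 to 5926 TPM in the H182 libraries, with VIM at means of 4026 and 3585 TPM and CAV1 at 417 and 327 TPM. These markers were thus lower in H182 as well, and their part in the members' falls was not tested. ESR1, PGR and CDH1 did not exceed 0.28 TPM. Summed markers of leukocytes, of endothelium and platelets, and of fibroblasts reached at most 2.60, 0.56 and 2.27 TPM.

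**Figure D1:**
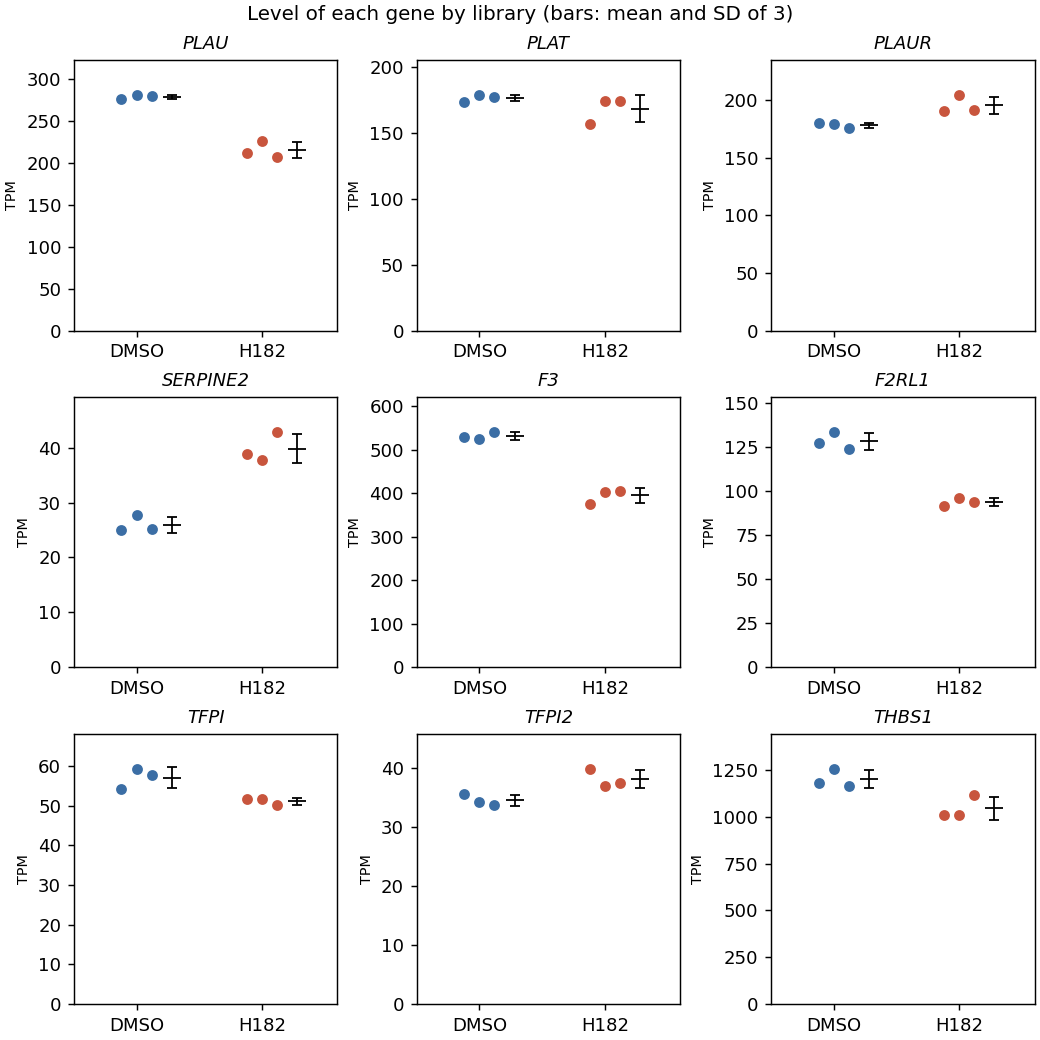
TPM (vertical axes, from 0) of each of the 9 genes in the 3 DMSO libraries (blue) and the 3 H182 libraries (red); black bars give the mean and SD of 3 libraries. The groups lie apart in 8 panels, and in PLAT the DMSO range of 173.37 to 178.14 TPM overlaps the H182 range of 156.17 to 174.08 TPM.

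PLAU encodes urokinase (ENSG00000122861.15, GRCh38 chromosome 10, 73909177 to 73917497, plus strand, protein-coding). Its level was 276.31, 281.02 and 280.57 TPM in the DMSO libraries and 212.09, 226.41 and 207.67 TPM in the H182 libraries. Every H182 library was below every DMSO library, with a gap of 49.9 TPM between the nearest values. The group means were 279 ± 2.60 and 215 ± 9.80 TPM (SD, n = 3 each), and the log2 change was -0.37 (SE 0.0414, limma adjusted p = 0.000227). With median-of-ratios scaling the change was -0.27 (adjusted p = 0.00401), and the call held under all 14 alternatives (adjusted p = 0.000127 to 0.00677). C10orf55, a gene on the opposite strand of the PLAU locus, was at means of 1.53 and 1.2 TPM. Whether counting used strand is not given in the sources used here, so reads of PLAU and C10orf55 may be mixed. The same limit holds for THBS1 and FSIP1 on its opposite strand, at means of 0.74 and 0.277 TPM. TFPI2 likewise overlaps GNGT1, at means of 0 TPM in both groups.

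PLAT encodes tissue-type plasminogen activator (chromosome 8, 42175233 to 42207724, minus strand). It was listed at 173.37, 178.14 and 176.96 TPM in DMSO and at 156.17, 174.08 and 173.52 TPM in H182. Only H182 replicate 1 stood clearly below the DMSO range. The log2 change was -0.07 (95% interval -0.18 to 0.04, limma adjusted p = 0.329), and its sign turned with median-of-ratios scaling (0.03) and with quantile normalization (0.02). Within each library, PLAU RNA stood above PLAT RNA in both groups. PLAU stood at 1.59 ± 0.00812 times PLAT in DMSO and at 1.29 ± 0.0817 times PLAT in H182.

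PLAUR encodes the urokinase receptor, a glycolipid-anchored protein that holds the enzyme on the cell surface (chromosome 19, 43646095 to 43670547, minus strand). It was at 180.05, 179.44 and 175.9 TPM in DMSO and at 190.41, 204.37 and 192.01 TPM in H182. The groups did not overlap, and the gap between them was 10.36 TPM. PLAUR rose by 0.13 on the log2 scale in TPM (SE 0.041, limma adjusted p = 0.0452), and the median-of-ratios value was 0.23 (adjusted p = 0.00609; 0.00609 to 0.153 over the 14 alternatives). The TPM call was lost when any 1 of the 6 libraries was left out (adjusted p = 0.0518 to 0.153), without a filter on low values (0.0624) and without a mean-variance trend (0.132).

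SERPINE2 encodes protease nexin-1 (chromosome 2, 223975112 to 224039319, minus strand). Its level was 25.03, 27.68 and 25.22 TPM in DMSO and 38.87, 37.81 and 42.86 TPM in H182. The lowest H182 library was 10.13 TPM above the highest DMSO library. The means were 26.0 ± 1.48 and 39.9 ± 2.66 TPM, and the log2 change was 0.60 (SE 0.0708, limma adjusted p = 0.000351), or 0.70 after median-of-ratios scaling. In absolute size, this change was at percentile 95.7 of all tested genes, and the call held under all 14 alternatives (adjusted p = 9.40e-05 to 0.00318). SERPINE2 was the least abundant of the 9 genes in DMSO. In H182 it stood level with TFPI2, whose range overlapped its own.

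F3 encodes tissue factor (ENSG00000117525.13, chromosome 1, 94529225 to 94541800, minus strand). It was at 529.66, 523.77 and 540.11 TPM in DMSO and at 374.78, 403.18 and 405.73 TPM in H182. All 3 H182 libraries were at least 118.04 TPM below the lowest DMSO library. The means were 531 ± 8.28 and 395 ± 17.2 TPM, and the log2 change was -0.43 (SE 0.0396, limma adjusted p = 6.35e-05). With median-of-ratios scaling it was -0.33 (adjusted p = 0.000377; 3.23e-05 to 0.00413 over the 14 alternatives). F3 was the most abundant gene of the group after THBS1, at percentile 97.9 of the DMSO levels of all tested genes.

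F2RL1 encodes the protease-activated receptor PAR2, a G protein-coupled receptor that is opened by proteolytic cutting, among others by the tissue factor complex and by trypsin-like enzymes (ENSG00000164251.4, chromosome 5, 76818933 to 76835315, plus strand). It was at 127.23, 133.28 and 123.9 TPM in DMSO and at 91.48, 96.14 and 93.7 TPM in H182. The groups were separated by 27.76 TPM, more than the spread within either. F2RL1 fell by 0.45 on the log2 scale (SE 0.0454, limma adjusted p = 0.000127), and the median-of-ratios value was -0.34 (adjusted p = 0.000792; 7.19e-05 to 0.00333 over the 14 alternatives). The falls of F2RL1 and F3 differed by less than 1 SE in TPM, and their order turned with quantile normalization (F3 -0.41, F2RL1 -0.36), without DMSO replicate 2 and without H182 replicate 3. Within libraries, the ratio of F3 to F2RL1 was 4.15 ± 0.215 in DMSO and 4.21 ± 0.117 in H182, with overlapping ranges, so both genes fell while their proportion overlapped between the groups.

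Stretches upstream of a RefSeq start of F3, F2RL1 and PLAU are shown because these 3 genes were lower under every alternative. Each is the upstream part of a RefSeq promoter window (GRCh38.p14), cut where an exon of GENCODE 29 begins. PLAU has 2 windows in RefSeq, and the one nearest the start of its principal transcript was used. Its stretch lies upstream of the RefSeq start at 73911132 but within the span of the gene, 73909177 to 73917497. Lower case is 5′ to 3′ on the strand of the gene, and capitals mark matches to 2 searched motifs, AP-1 (TGANTCA) and SP1 (GGGCGG), on either strand. The F3 stretch is chr1:94541801-94542009 on the minus strand, the F2RL1 stretch is chr5:76818780-76818932 on the plus strand, and the PLAU stretch is chr10:73910882-73911103 on the plus strand.
F3: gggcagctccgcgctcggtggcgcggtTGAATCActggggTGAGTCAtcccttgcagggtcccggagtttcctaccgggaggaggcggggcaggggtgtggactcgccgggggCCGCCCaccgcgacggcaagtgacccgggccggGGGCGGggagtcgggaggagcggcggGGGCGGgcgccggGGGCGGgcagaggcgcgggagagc
F2RL1: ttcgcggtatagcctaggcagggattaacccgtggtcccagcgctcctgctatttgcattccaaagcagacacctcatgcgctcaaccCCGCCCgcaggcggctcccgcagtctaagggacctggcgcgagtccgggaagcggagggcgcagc
PLAU: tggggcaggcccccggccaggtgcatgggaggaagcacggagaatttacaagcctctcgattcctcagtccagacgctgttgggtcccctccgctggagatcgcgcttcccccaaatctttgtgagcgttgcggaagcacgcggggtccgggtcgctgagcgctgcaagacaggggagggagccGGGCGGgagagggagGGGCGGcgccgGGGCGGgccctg

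The F3 stretch holds 2 AP-1 matches, which begin 223 and 210 bases before the RefSeq start, and 4 SP1 matches. The windows of 3 of the 8 members with one in the table held an AP-1 match (F3, PLAUR and TFPI2), as did 7.71% of all 35116 windows of the same length. Of these 3 genes, F3 fell, and PLAUR rose by 0.13 on the log2 scale in TPM, a call lost under 9 of the 14 alternatives. TFPI2 (0.14) did not pass in TPM. A link between the AP-1 matches and these changes was not tested. Matches to SP1 were in 6 of the 8 windows and in 45.0% of all windows. A STAT match (TTCNNNGAA) lay in 2 windows, those of F2RL1 and THBS1, against 7.66% of all windows. In F2RL1 it begins 6 bases before the RefSeq start at 76819030. That position is past the printed stretch and within a GENCODE 29 exon of the gene, whose span starts at 76818933. CRE (TGACGTCA) and heat shock element (GAANNTTC) letters were in none of the 8 windows, against 1.85% and 6.77% of all. A TATA box (TATAAA) match was in the window of F3, also past its printed stretch, against 11.5% of all. Matches are a description of these letters only.

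TFPI encodes tissue factor pathway inhibitor, which blocks the complex of tissue factor with its protease (chromosome 2, 187464230 to 187565760, minus strand). It was at 54.13, 59.33 and 57.71 TPM in DMSO and at 51.6, 51.7 and 50.12 TPM in H182. The ranges did not overlap but lay only 2.43 TPM apart. The log2 change of -0.15 (95% interval -0.27 to -0.03) did not pass after adjustment (limma adjusted p = 0.0633), and it was -0.05 with median-of-ratios scaling. TFPI2 encodes a related Kunitz-type inhibitor of plasmin and other serine proteases that is secreted into the matrix (chromosome 7, 93885396 to 93890991, minus strand). It was at 35.66, 34.33 and 33.81 TPM in DMSO and at 39.94, 37.06 and 37.58 TPM in H182. Its 3 H182 libraries were above its 3 DMSO libraries by at least 1.4 TPM. The log2 change was 0.14 (limma adjusted p = 0.114) in TPM. It passed only after median-of-ratios scaling (0.24, adjusted p = 0.0278) and after quantile normalization (0.22, adjusted p = 0.0425) among the 14 alternatives, whose adjusted p reached 0.281.

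THBS1 encodes thrombospondin-1, a secreted adhesive glycoprotein that binds matrix, cell receptors and proteases and can activate latent TGF-beta (ENSG00000137801.10, chromosome 15, 39581079 to 39599466, plus strand). It was at 1180.35, 1257.18 and 1166.78 TPM in DMSO and at 1009.57, 1011.91 and 1116.4 TPM in H182. H182 replicate 3 lay nearest to the DMSO libraries, 50.38 TPM below the lowest of them. THBS1 fell by 0.20 on the log2 scale (SE 0.0472, limma adjusted p = 0.0143) in TPM. With median-of-ratios scaling the value was -0.10 and did not pass (adjusted p = 0.167; 0.00479 to 0.167 over the 14 alternatives). The call was also lost with quantile normalization (adjusted p = 0.0599), without a filter on low values (0.0554), without a mean-variance trend (0.0767), without DMSO replicate 2 (0.055) and without H182 replicate 2 (0.0598). In both groups THBS1 was the most abundant of the 9 genes, at 2.26 times F3 in DMSO and 2.65 times F3 in H182.

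**Figure D2:**
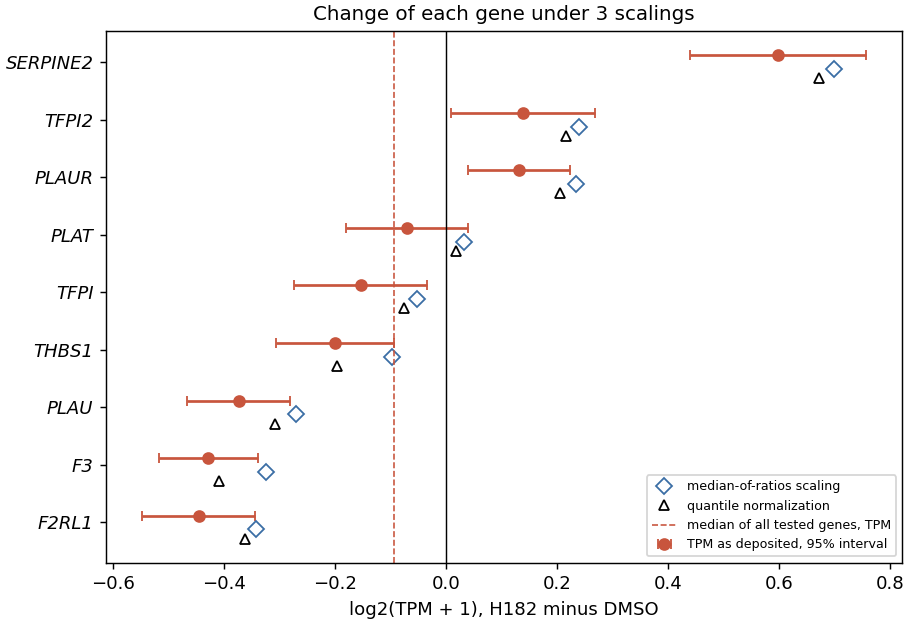
Change of each gene (horizontal axis, log2(TPM + 1), H182 minus DMSO) in TPM with its 95% interval (red circles), with median-of-ratios scaling (blue diamonds) and with quantile normalization (black triangles); the dashed line is the median of all tested genes in TPM, -0.09. F2RL1, F3 and PLAU lie to the left and SERPINE2 to the right under all 3 scalings, and PLAT changes side.

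The order of levels, which TPM gives per transcript length, was THBS1, F3, PLAU, PLAUR, PLAT, F2RL1, TFPI, TFPI2 and SERPINE2 in DMSO. All neighbours in this order were apart in every library except PLAUR and PLAT, at 178 ± 2.24 and 176 ± 2.48 TPM, whose ranges overlapped. In H182 the order was the same down to TFPI, SERPINE2 stood above TFPI2 with overlapping ranges, and PLAUR and PLAT were apart at 196 ± 7.64 and 168 ± 10.2 TPM.

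Ratios of 2 genes within a library are the same in TPM and after median-of-ratios scaling, which multiplies a library by 1 factor, but not after quantile normalization. In TPM, 8 pairs of partners were compared, chosen after the values were seen. The groups did not overlap in 6 of them. Each of these 6 had a two-sided exact permutation p of 0.1, the smallest that 3 against 3 libraries can give. The adjusted p of each was 0.133 over the 8 pairs. The pairs reuse the values of the single genes, so this count is not separate support. Its share over all gene pairs was not computed. Urokinase to its receptor (PLAU to PLAUR) was 1.54, 1.57 and 1.59 in DMSO and 1.11, 1.11 and 1.08 in H182. PLAU RNA was thus clearly above PLAUR RNA in DMSO and only slightly above it in H182. All these ratios are of RNA, and protein was not measured. PLAU to SERPINE2 went from 10.8 ± 0.538 to 5.43 ± 0.572, and PLAT to SERPINE2 from 6.79 ± 0.313 to 4.22 ± 0.33. Tissue factor to its inhibitor (F3 to TFPI) went from 9.32 ± 0.479 to 7.72 ± 0.422, and F3 to TFPI2 from 15.4 ± 0.568 to 10.4 ± 0.841. The protease-activated receptors F2RL1 and F2R kept overlapping ratios of 2.96 ± 0.152 and 2.75 ± 0.102 (exact permutation p = 0.2).

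**Figure D3:**
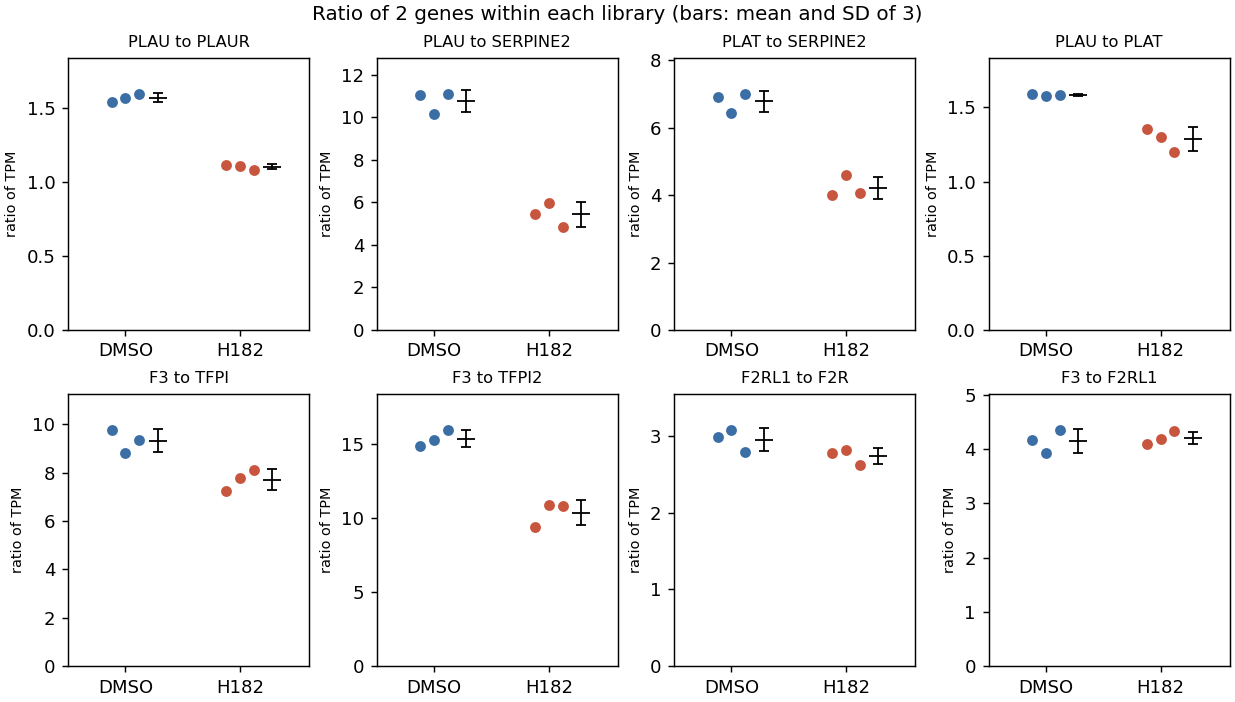
Ratio of the TPM of 2 genes within each library (vertical axes, from 0) for 8 pairs, in 3 DMSO (blue) and 3 H182 (red) libraries, with mean and SD of 3. PLAU to PLAUR is at about 1.57 in DMSO and about 1.10 in H182 with no overlap (exact permutation test, adjusted p = 0.133), while F3 to F2RL1 and F2RL1 to F2R overlap.

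Other genes of plasminogen activation were taken from a list of 16. Of these, 7 were tested, of which none rose and 3 fell in TPM, where 18.7% of all tested genes were lower (list median -0.16, all tested genes -0.09). None passed with median-of-ratios scaling, where 6.79% of all were lower, and the 3 passed with quantile normalization, where 10.3% were. The 3 that fell act as plasminogen binding sites on cells: enolase (ENO1, from 1762 ± 23.3 to 1546 ± 39.6 TPM), annexin A2 (ANXA2, from 2473 ± 39.5 to 2236 ± 36.8 TPM) and its partner S100A10 (from 773 ± 22.1 to 672 ± 39.8 TPM). The plasminogen receptor gene PLGRKT did not pass (log2 change -0.23, limma adjusted p = 0.129). The clearance receptor LRP1 (0.06) and VLDLR (0.29), which take up complexes of activator and inhibitor, did not pass. Plasminogen itself (PLG) was at 0.747 ± 0.219 and 0.453 ± 0.221 TPM, below the minimum mean of 1 TPM for a test, and so was SERPINB2.

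Of 27 other genes of coagulation and its receptors, 11 were tested, none rose and 4 fell in TPM (list median -0.26), of which 3 also passed with median-of-ratios scaling. The shares of all tested genes that were lower were 18.7% in TPM and 6.79% with that scaling. F2R, the thrombin receptor PAR1, fell from 43.4 ± 0.936 to 34.2 ± 1.39 TPM (log2 change -0.34, limma adjusted p = 0.00279). GGCX, the enzyme that carboxylates vitamin K-dependent clotting factors, fell from 45.3 ± 2.65 to 36.3 ± 1.93 TPM. MCFD2, which helps export factors V and VIII from the endoplasmic reticulum, fell from 168 ± 6.23 to 140 ± 3.79 TPM. THBD, the thrombin cofactor thrombomodulin, fell from 18.8 ± 0.464 to 15.8 ± 0.21 TPM in TPM values (adjusted p = 0.0365) but not with median-of-ratios scaling (-0.13). Another 7 tested genes did not pass, among them LMAN1 (-0.0026) and VKORC1 (-0.0883). The 16 genes not tested had means of at most 0.845 TPM. Among them were F7 and F10, whose products bind tissue factor or are cut by its complex, the prothrombin gene F2, and the fibrinogen genes FGA and FGG, which were listed at 0 in all 6 libraries. Of 6 other thrombospondin family and receptor genes 2 were tested, and neither passed: the receptor CD47 (-0.15) and THBS3, at 1.5 ± 0.0751 and 1.75 ± 0.741 TPM. THBS2, THBS4, COMP and the receptor CD36 were below the minimum, so THBS1 was the main thrombospondin of these cells by level.

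**Figure D4:**
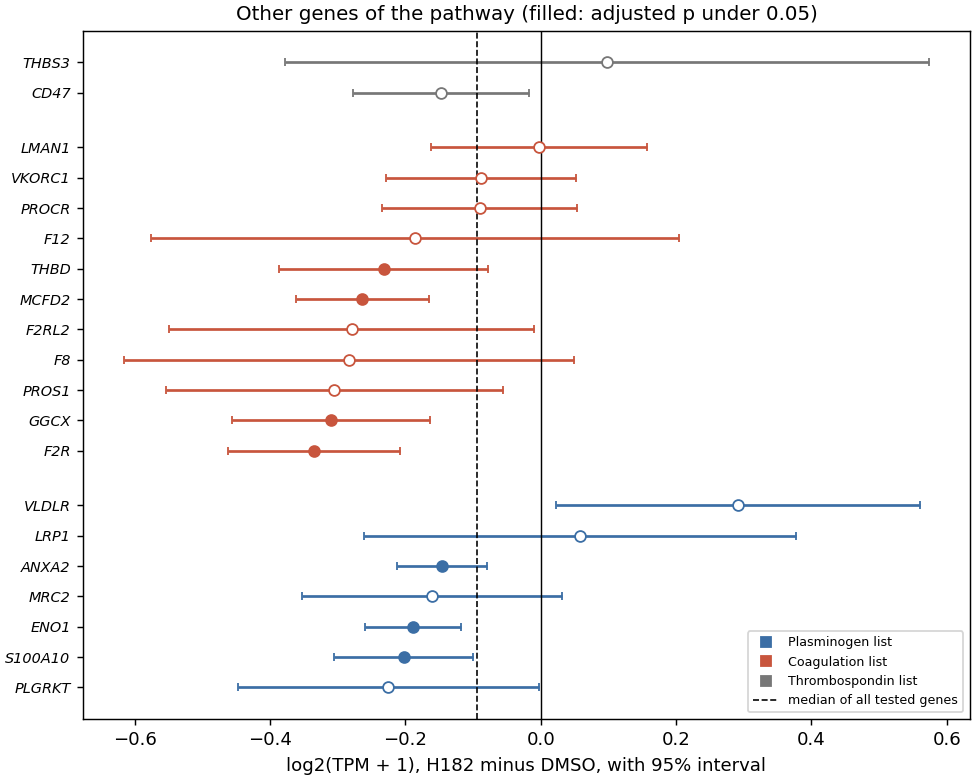
Change (horizontal axis, log2(TPM + 1), H182 minus DMSO, with 95% interval) of the 20 tested genes of the plasminogen (blue), coagulation (red) and thrombospondin (grey) lists; filled circles passed at an adjusted p under 0.05 in limma, and the dashed line is the median of all tested genes. All 7 filled circles lie to the left of 0, F2R lowest.

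The genes with values most similar to SERPINE2 and F2RL1, the members with the highest and the lowest log2 change in TPM, were found by the root mean square difference over the 6 libraries, on the log2 scale after each gene's DMSO mean was taken off. For SERPINE2 these were MB21D1 (0.0452), UBE2D1 (0.0472) and SOX4 (0.0493), which changed by 0.60, 0.57 and 0.59. For F2RL1 they were KRTAP2-3 (0.013), DUS2 (0.021) and PRPF4B (0.0236), which changed by -0.44, -0.43 and -0.43.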

How the data were processed

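RNA was poly-A selected and libraries were made with a stranded kit, per the labels' protocols. STAR 2.5.0, RSEM 1.2.25 and GRCh38 were used, per the submitters' processing notes; the sources used here do not name the annotation, trimming or strand setting. The values, as deposited, are TPM per gene and library, in 27567 rows, of which 92 spike-in rows and 24 second rows of genes shared by X and Y were left out. Values were analysed as log2(TPM + 1) where the mean over the 6 libraries reached 1 TPM, with limma 3.58.1 in R 4.3.3 (mean-variance trend, two-sided, Benjamini-Hochberg over all tested genes, threshold 0.05). On this scale, changes of low genes are understated. The verbs rose and fell are kept for genes past the threshold. Errors are SDs of 3 libraries unless called SE. The test was also run on 10 simulated sets of 12294 genes, in each of which only 200 genes were changed. It detected 17.2% of the changes of size 0.25, 61.2% of size 0.5, 87.8% of size 1 and 98.4% of size 2. False detections made up 4.82% of the total. The real fit called 651 genes higher and 2304 lower, far more than 200. Because the adjustment depends on how many genes change, these shares do not give the detection rate in the real data. The members and lists were chosen with earlier results of these data known. All members were named, and of each list the 3 lowest p-values among those passing or else the 2 highest levels; other list genes were named after their values were seen. An item of the plasminogen list is not reported here. Coordinates are from GENCODE 29. Alternatives covered the pseudocount, filter, scaling, variance model, library weights, replicate block and leaving out each library.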

Additional observations from a re-analysis of the deposited data

How the results depend on the processing

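F3, F2RL1, PLAU and SERPINE2 kept direction and call under all 14 alternatives, with log2 changes of -0.45 to -0.33, -0.47 to -0.34, -0.41 to -0.27 and 0.55 to 0.70. PLAUR, the second gene higher in TPM, was lost without a filter, without a trend, with the replicate block (adjusted p = 0.0594) and without any 1 library, which left 1 gene of the 9 higher in each of these. The number of the 9 genes lower was 3 or 4 with each library left out. PLAT turned to 0.033 with median-of-ratios scaling and 0.017 with quantile normalization, and THBS3, at 0.10 with all libraries, ranged from -0.052 (without H182 replicate 1) to 0.34 with 1 library left out. Of the plasminogen list, 0 genes were lower with median-of-ratios scaling and 1 without a trend. Over all tested genes, 651 were higher and 2304 lower in TPM, 972 and 835 after median-of-ratios scaling, 833 and 1261 with quantile normalization, and 1407 to 2205 were lower with 1 library left out. The cause of calls that moved with the scaling was not tested. No sign was seen that the replicate numbers pair the libraries. Deviations of same-numbered libraries correlated at -0.0359 to 0.0025 across genes, and no library correlated best with its own number. Shared handling that left no such signal cannot be seen this way. The replicate block gave 625 genes higher and 2059 lower. Read depth is not in TPM, so what it limits could not be measured.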
